A study of Homo sapiens with 8 samples.

Results

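The genes described here are PRDM16, PPARG, PPARGC1A, CEBPA, UCP1, CIDEA, DIO2, PLIN2, PLIN3 and PLIN4, which are 10 of the 38637 genes in the expression table. They were chosen by name as thermogenic and fat cell genes that EBF2 governs in brown fat, together with 3 perilipins. The rule names the genes and uses no measured value, but they were chosen when earlier results of these data were known. The question was whether raising EBF2 increased their RNA in a carcinoma cell line that is not of fat origin, and how the same genes stood under GSK-LSD1. Of the 10 genes, 8 had enough reads for a test. In EBF2-OE against Vector 0 of them were called higher or lower, as were 0% of all genes tested. EBF2 itself was not called there by edgeR but was by DESeq2, with 28 counts in each Vector library and 5818 and 90100 in EBF2-OE. Under GSK-LSD1 PRDM16, PPARGC1A and DIO2 were called higher, where 2.53% of all genes tested were. A difference between the effects of EBF2-OE and GSK-LSD1 was not called for any of the 8, as for 0% of all genes tested, EBF2 included.

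Poly(A)-selected RNA was sequenced from SW1990, an established human pancreatic adenocarcinoma line, in 4 groups of 2 libraries each. The labels name SW1990, while a figure caption of the paper names SW1990-luc, the line labelled with luciferase, for the sequencing. Vector cells carried the empty construct and EBF2-OE cells overexpressed EBF2, and the libraries of both groups are numbered 2 and 3. Vehicle cells received the vehicle and GSK-LSD1 cells an inhibitor of the histone demethylase KDM1A (LSD1), and the libraries of both groups are numbered 1 and 2. The labels give a dose of 2000 µM, the unit of which is in doubt, since the methods state no dose for sequencing and the other doses named for these cells are far lower. The labels give no genotype change for Vehicle and GSK-LSD1 cells and no drug for Vector and EBF2-OE cells. All the libraries come from a single cell line, and how the EBF2-OE cells used for sequencing were selected is not given in the sources used here. The labels do not say what the numbers stand for, nor that the libraries of a group came from separate cultures. The p-values therefore measure the spread between these libraries, which may be technical.

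EBF2 is a transcription factor of the early B cell factor family that marks committed brown fat precursors and binds, with PPARγ, the enhancers of brown fat genes. PRDM16 and PGC-1α (PPARGC1A) are coregulators of the thermogenic program, and PPARγ (PPARG) and C/EBPα (CEBPA) drive fat cell differentiation. UCP1 uncouples respiration in brown fat mitochondria, CIDEA sits on lipid droplets of thermogenic fat cells, and DIO2 converts thyroxine to the active thyroid hormone. Perilipins coat lipid droplets and govern access of lipases to the stored fat.

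EBF factors bind a palindromic DNA sequence with the core CCCNNGGG, which reads the same on both strands. The core was looked for in the promoters of the RefSeq table for GRCh38.p14, each reaching from 250 bases before to 50 bases after the start of a gene. Of the 10 genes 9 matched an entry, and PRDM16 did not. The core was present in the promoters of 2 of the 9 genes (22.2%), PLIN2 and PLIN4, and in 5081 of all 27305 promoters (18.6%). The longer palindrome TCCCNNGGGA, which contains the core, was in 0 of the 9 and in 329 of all promoters (1.20%). The matches are shown because they are the sequence that the tested factor family is known for. Each is given 5′ to 3′ on the reverse strand, the strand of both genes, with the core in capitals.
PLIN2, chr9:19127589-19127618: gccgggacgtgCCCGAGGGtgacactcggg
PLIN2, chr9:19127488-19127517: tagcccgggcgCCCGCGGGccccacgcttt
PLIN4, chr19:4518555-4518584: ccaggccacctCCCCCGGGcccattggccg
The cores begin 115 and 14 bases before the RefSeq start of PLIN2 and 87 bases before that of PLIN4. The window of the nearer PLIN2 core and that of PLIN4 lie inside the spans that the expression table gives for these genes. The promoter searched for DIO2, without a match, lies inside the span of its gene as well. A match describes the letters and does not show binding, and no match says only that these letters were not in the window searched.

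The libraries held 20453362 to 27054876 counts on genes. EBF2 checked the labels of the overexpression. It had 28 counts in each Vector library, 5818 in EBF2-OE 2 and 90100 in EBF2-OE 3, so that both overexpressing libraries were far above the controls and unlike each other. With that spread EBF2 itself, at a log2 fold change of 10.75, had an adjusted p of 1.00 by edgeR and 6.37e-09 by DESeq2. The libraries of Vector and of EBF2-OE differed more among themselves than those of the drug experiment: 8.77% of the genes tested lay more than 1.5-fold apart between the Vector libraries and 10.7% between the EBF2-OE libraries, against 1.06% in Vehicle and 0.616% in GSK-LSD1. Of 6 fat cell markers, at most 4 had a count in any group, their TPM (reads per gene length, scaled to the same total in each library) summed to 0.155 to 0.913 in each library, and ADIPOQ, which encodes the fat cell hormone adiponectin, had 0 counts throughout. The duct epithelium markers summed to 4647 to 7237 TPM and rested on the keratins KRT7, KRT8 and KRT18. MUC1 (123 to 193 TPM) and SOX9 (4.35 to 39.4 TPM) were present as well. The other 3 of the 8 markers, KRT19 (0 to 1.57 TPM), EPCAM (0.249 to 1.42 TPM) and CDH1 (0.186 to 1.12 TPM), were near 0 in all 8 libraries. In EBF2-OE the summed duct markers (5482 and 6287 TPM) were above those of Vector (4647 and 4964 TPM). The rise was mostly in KRT8 and KRT18, while KRT7 overlapped (841 and 757 against 836 and 751 TPM). The part of these markers in the values below was not tested. The summed fibroblast markers reached 50.8 to 66.8 TPM and the immune markers 2.76 to 5.97 TPM, with overlapping ranges in EBF2-OE and Vector.

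EBF2-OE cells were compared with Vector cells on their 4 libraries by edgeR's quasi-likelihood test over 15560 genes, with a gene called when it changed by more than 1.5-fold at an adjusted p under 0.05 (Benjamini-Hochberg). Among the 8 genes with enough counts, 0 were called higher (0% of all genes tested) and 0 lower (0% of all genes tested). DESeq2 and limma also called 0 of the 8. At an unadjusted p under 0.05 and the same fold limit edgeR gave 1 higher gene, PLIN4, where 0.733% of all genes tested met that limit. PLIN3 and PLIN4 were higher in both EBF2-OE libraries than in both Vector libraries, 2 of the 8 genes, a pattern seen in 12.1% of all genes tested. The median log2 fold change of the 8 genes was 0.07, beside 0.00 over all genes tested, and 5 of the 8 were positive. In this comparison the adjusted p was 1.00 for each of the 8 genes.

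**Figure D1:**
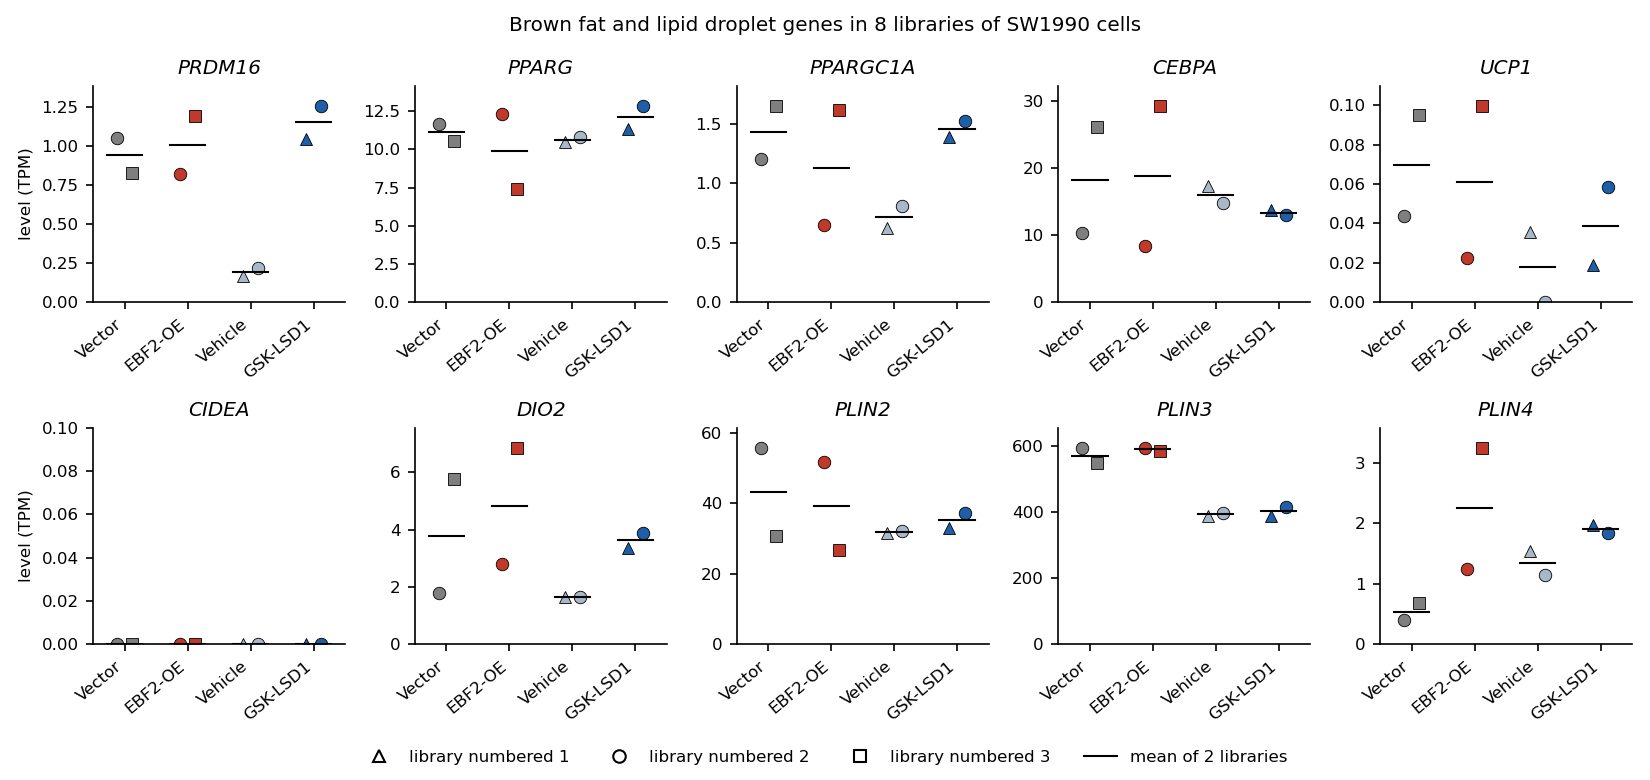
Level of each of the 10 genes in the 8 libraries, in TPM on a linear scale from 0 that differs between panels. Points are libraries, the shape gives the library number and the bar the mean of 2 libraries. PRDM16 lay at 0.167 and 0.221 TPM in Vehicle and between 0.822 and 1.26 TPM in the other 6 libraries, while CIDEA had no count in any library.

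The regulators did not separate EBF2-OE from Vector. PRDM16, on chromosome 1 (hg38, 3069203 to 3438621, forward strand), had 71 and 65 counts in Vector and 55 and 89 in EBF2-OE. The Vector values lay between the EBF2-OE values. In CPM (counts scaled by TMM) Vector stood at 3.03 ± 0.431 and EBF2-OE at 3.33 ± 0.900 (SD over 2 libraries). The log2 fold change was 0.14 with a 95% interval of -0.68 to 0.95.

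PPARG, the nuclear receptor that acts as master regulator of fat cell formation, lies on chromosome 3 (12287368 to 12434344, forward strand). It had 641 and 673 counts in Vector and 670 and 450 in EBF2-OE. The groups overlapped, and EBF2-OE 3 was the lowest of the 4 libraries. The log2 fold change was -0.14 with an interval of -0.74 to 0.45.

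PPARGC1A, the coactivator of mitochondrial biogenesis on chromosome 4 (23792021 to 24472905, reverse strand), had 112 and 178 counts in Vector and 60 and 165 in EBF2-OE. EBF2-OE 2 was the lowest library and EBF2-OE 3 lay within the Vector range. The log2 fold change was -0.30 with an interval of -1.41 to 0.80. Without EBF2-OE 3 it was -1.11 and without EBF2-OE 2 it was 0.20.

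CEBPA, on chromosome 19 (33299934 to 33302564, reverse strand), had 210 and 620 counts in Vector and 168 and 659 in EBF2-OE. In both groups the library numbered 3 was the higher one, by 2.64-fold in Vector and 3.57-fold in EBF2-OE after normalisation. The groups overlapped almost entirely, with a log2 fold change of 0.07 and an interval of -1.53 to 1.67. Leaving out a single library moved the value to between -1.13 (without EBF2-OE 3) and 0.93 (without EBF2-OE 2).

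Of the thermogenic effectors, UCP1 and CIDEA were too low to test. UCP1 (chromosome 4, 140555770 to 140568961, reverse strand) had 2 and 5 counts in Vector, 1 and 5 in EBF2-OE, 2 and 0 in Vehicle and 1 and 3 in GSK-LSD1. The highest library, EBF2-OE 3, reached 0.0999 TPM, next to 0.0949 TPM in Vector 3, and all 4 groups overlapped except that both Vector libraries were at or above the Vehicle libraries. CIDEA (chromosome 18, 12254361 to 12277595, forward strand) had 0 counts in each of the 8 libraries. A count of 0 allows up to 3 counts, which in these libraries would be 0.159 to 0.215 TPM, so a level below that was not detectable at this depth. Such limits cover counting error alone.

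DIO2 (chromosome 14, 80197526 to 80231057, reverse strand) had 96 and 361 counts in Vector and 150 and 409 in EBF2-OE. The library numbered 3 was again the higher one in both groups, 3.36-fold in Vector and 2.48-fold in EBF2-OE. The groups overlapped, the log2 fold change was 0.38 and its interval ran from -1.16 to 1.91. It was -0.42 without EBF2-OE 3, -0.24 without Vector 2, 0.88 without EBF2-OE 2 and 1.502 without Vector 3.

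Among the perilipins, PLIN4 had the largest difference of the 8 genes tested. PLIN4, a perilipin of nascent lipid droplets that is abundant in white fat, lies on chromosome 19 (4502192 to 4520285, reverse strand). It had 26 and 52 counts in Vector and 81 and 236 in EBF2-OE, so that both EBF2-OE libraries were above both Vector libraries. EBF2-OE 3, the library with the higher EBF2 count, also had the higher PLIN4 count, and the library numbered 3 was the higher one in Vector as well (1.79-fold, against 2.65-fold in EBF2-OE). What the number has to do with the difference was not tested. In CPM the Vector level was 1.70 ± 0.679 and that of EBF2-OE 7.25 ± 4.64 (SD over 2 libraries). The difference was 4.23-fold, a log2 fold change of 2.08 with a standard error of 0.549 and an interval of 0.74 to 3.42. The unadjusted p was 0.00878 and the adjusted p 1.00 by edgeR, and 0.288 after adjustment by DESeq2, so the difference did not pass the threshold. The log2 fold change was 1.21 without EBF2-OE 3 and 2.61 without EBF2-OE 2. The adjusted p of PLIN4 ranged from 2.11e-06 to 1.00 over the alternatives. It was under 0.05 only when no low-count filter was applied, where the standard error fell to 0.344. That of EBF2 fell there as well, from 1.55 to 0.198, although its EBF2-OE libraries were far apart (5818 and 90100 counts).

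PLIN2, the perilipin that coats droplets in most cell types, lies on chromosome 9 (19108391 to 19127518, reverse strand). It had 1025 and 652 counts in Vector and 941 and 544 in EBF2-OE. Here the library numbered 2 was the higher one in both groups, the ratio of number 3 to number 2 being 0.568 in Vector and 0.526 in EBF2-OE. The groups overlapped, and the log2 fold change was -0.10 with an interval of -1.01 to 0.81.

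PLIN3, which shuttles between the cytosol and lipid droplets, lies on chromosome 19 (4838341 to 4867667, reverse strand). It had 10305 and 11043 counts in Vector and 10237 and 11203 in EBF2-OE. After normalisation both EBF2-OE libraries (502 and 500 CPM) were above both Vector libraries (485 and 464 CPM). The log2 fold change was 0.08 with an interval of -0.18 to 0.34, the narrowest of the 8 genes. An increase of 1.5-fold lay above the interval of PLIN3 and of PPARG and below that of PLIN4, and within the intervals of the other 5.

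PLIN1 and PLIN5, the perilipins of mature fat cells and of oxidative tissues, were read beside them. PLIN1 had 10 and 4 counts in Vector and 10 and 1 in EBF2-OE, with overlapping groups. PLIN5 had 5 and 3 counts in Vector and 0 and 12 in EBF2-OE, too few for the test. PLIN5 lies upstream of PLIN4 on the same reverse strand, with 2245 bases between the end of PLIN5 and the start of PLIN4.

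**Figure D2:**
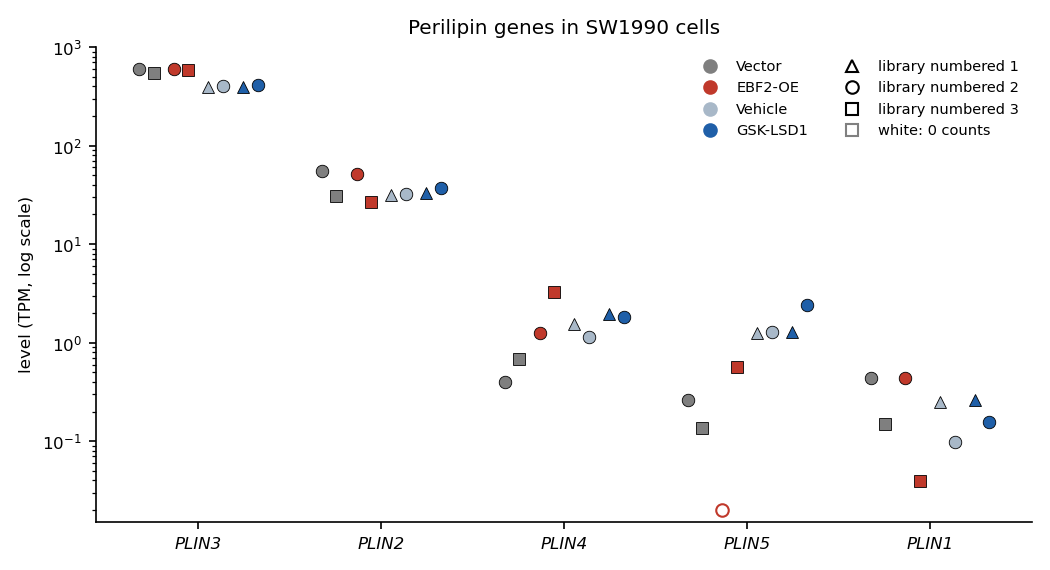
Level of 5 perilipin genes per library, in TPM on a log scale, with colour for the group, shape for the library number and a white point at the lower edge for 0 counts. PLIN3 lay between 389 and 596 TPM in all libraries, PLIN2 between 26.8 and 55.7 TPM, and PLIN4 between 0.394 and 3.25 TPM with its highest value in EBF2-OE 3.

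Per length, PLIN3 was the most abundant of the 10 genes in every library, from 389 TPM in Vehicle 1 to 596 TPM in EBF2-OE 2, which placed it between the 99.1 and 99.4 percentile of all genes of its library. It made up 90.9% to 95.02% of the summed perilipin TPM, PLIN2 made up 4.35% to 8.56% and PLIN4 0.0606% to 0.526%. PLIN2 followed at 26.8 to 55.7 TPM, then CEBPA at 8.30 to 29.3 TPM and PPARG at 7.43 to 12.9 TPM, and the ranges of these neighbours overlapped. DIO2 (1.63 to 6.86 TPM), PPARGC1A (0.627 to 1.65 TPM), PLIN4 (0.394 to 3.25 TPM) and PRDM16 (0.167 to 1.26 TPM) came lower, each overlapping the next in this order. UCP1 did not exceed 0.0999 TPM.

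GSK-LSD1 cells were compared with Vehicle cells in the same way, over 16059 genes. Of the 8 genes tested, PRDM16, DIO2 and PPARGC1A were called higher, where 2.53% of all genes tested were called higher. By DESeq2 they were called as well. None of the 8 was called lower by edgeR or DESeq2, where 2.04% of all genes tested were, and 0 of the 8 were lower at an unadjusted p under 0.05 by edgeR. In 7 of the 8 both GSK-LSD1 libraries were above both Vehicle libraries, a pattern seen in 30.0% of all genes tested, and CEBPA had both below. The median log2 fold change of the 8 genes was 0.38, beside -0.01 over all genes tested.

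PRDM16 had the largest rise. Its counts went from 14 and 20 in Vehicle to 83 and 96 in GSK-LSD1, with no overlap. The level went from 0.650 ± 0.117 to 3.95 ± 0.442 CPM (SD over 2 libraries), which is 6.0-fold. This log2 fold change of 2.59 had a standard error of 0.253 and an adjusted p of 1.01e-04 by edgeR. Its call held under all 11 alternatives for this gene, in which the highest adjusted p was 0.0145.

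DIO2 rose from 109 and 120 counts in Vehicle to 214 and 237 in GSK-LSD1. The Vehicle libraries were nearly equal and both treated libraries were above them, at 4.40 ± 0.0126 and 9.94 ± 0.810 CPM (SD over 2 libraries). The log2 fold change of 1.17 (standard error 0.134) had an adjusted p of 2.50e-04. PPARGC1A rose from 72 and 101 counts to 151 and 160, again without overlap. Its log2 fold change of 1.05 (standard error 0.164) had an adjusted p of 0.00173. Both calls were lost when the spread was estimated over all 8 libraries, with adjusted p-values of 0.423 for DIO2 and 0.292 for PPARGC1A.

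The other 5 did not pass under GSK-LSD1. PLIN4 went from 126 and 101 counts to 152 and 137, a log2 fold change of 0.54 with an adjusted p of 0.0544. Without Vehicle 1 its log2 fold change was 0.79 and the adjusted p 7.45e-04. PPARG (714 and 794 counts against 731 and 798) had a log2 fold change of 0.22 with an adjusted p of 0.0791, and PLIN2 (717 and 789 against 712 and 774) had 0.18 with an adjusted p of 0.143. PLIN3 had a log2 fold change of 0.06, with an interval of -0.04 to 0.17. CEBPA went from 436 and 403 counts to 329 and 298, a log2 fold change of -0.23 with an interval of -0.48 to 0.03. PLIN5, which is not of the 10, went from 30 and 33 counts to 29 and 52, with an adjusted p of 0.259. EBF2 itself went from 30 and 24 counts to 40 and 24. Among the marker genes of other cell types, the summed endothelial markers went from 4.88 and 5.02 TPM to 2.63 and 2.79 TPM. The summed duct markers went from 7124 and 7237 to 5322 and 5364 TPM. Fibroblast markers were higher in GSK-LSD1 (62.6 to 65.2 TPM, against 57.7 to 58.7 TPM in Vehicle). Immune markers were lower in GSK-LSD1 (4.27 to 4.97 TPM, against 5.42 to 5.97 TPM in Vehicle). Fat cell markers overlapped, with ADIPOQ at 0. All libraries come from a single cell line, and these sums describe RNA of marker genes, not numbers of cells of other types. Most of the endothelial sum was CDH5 (4.34 and 4.20 TPM in Vehicle, 2.05 and 2.21 TPM in GSK-LSD1). The fall of the duct sum was mostly in KRT7, KRT8 and KRT18, while MUC1 overlapped (148 and 123 against 135 and 162 TPM). The part of these shifts in the values of the 10 genes was not tested.

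**Figure D3:**
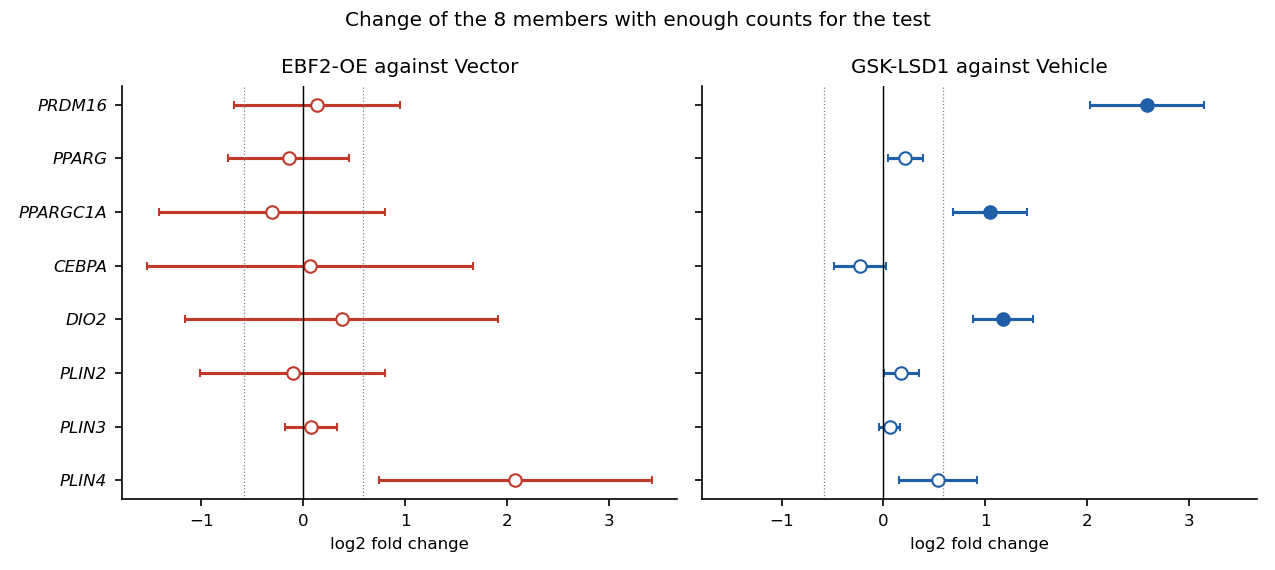
Log2 fold change of the 8 genes with enough counts, with the 95% interval from edgeR, for EBF2-OE against Vector (left) and GSK-LSD1 against Vehicle (right). Filled points passed both limits, and the dotted lines mark a 1.5-fold change. No point on the left is filled, and the interval of CEBPA ran from -1.53 to 1.67, while PRDM16, PPARGC1A and DIO2 are filled on the right.

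Whether the effects of EBF2-OE and GSK-LSD1 differed was tested in 1 fit over all 8 libraries and 16558 genes. At an adjusted p under 0.05, 0 of the 8 genes differed, as did 0% of all genes tested. For PRDM16 the effect of EBF2-OE was lower than that of GSK-LSD1 by -2.46 on the log2 scale, with an interval of -3.39 to -1.52 and an adjusted p of 0.108 by edgeR. The difference was -1.37 for PPARGC1A (adjusted p 0.616) and -0.82 for DIO2 (adjusted p 0.858). For PLIN4 it was 1.53, in the other direction, with an adjusted p of 0.617. EBF2 itself, with a difference of 10.3, was not called either (adjusted p 0.286 by edgeR). For the 8 genes a difference between the overexpression and the drug was therefore not called.

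The control groups themselves differed in these genes. Over 16019 genes, 5.79% were called higher and 10.2% lower in Vector than in Vehicle. PRDM16 was 4.72-fold higher in Vector (71 and 65 counts, against 14 and 20), with an adjusted p of 0.0109, and reached levels like those of GSK-LSD1 cells (0.829 to 1.05 TPM in Vector, 1.05 to 1.26 TPM in GSK-LSD1). PPARGC1A was 1.97-fold higher in Vector with an adjusted p of 0.0440. PLIN4 was lower in Vector (26 and 52 counts, against 126 and 101), with a log2 fold change of -1.32 and an adjusted p of 0.0433. In TPM, EBF2-OE 2 (1.24) lay between the Vehicle libraries (1.14 and 1.54) and EBF2-OE 3 (3.25) above them. PLIN3 was higher in Vector by a log2 fold change of 0.52 with an adjusted p of 0.00976, under the fold limit. PLIN5 had 5 and 3 counts in Vector and 30 and 33 in Vehicle, a log2 fold change of -2.70 with an adjusted p of 0.0145. All 3 calls among the 10 genes, and that of PLIN5, were lost without Vehicle 1 and without Vehicle 2. The adjusted p of PLIN3 did not pass in these fits either. Without Vehicle 1 the log2 fold changes were 2.07 for PRDM16, 0.81 for PPARGC1A and -1.08 for PLIN4. Without Vehicle 2 they were 2.44, 1.16 and -1.55. Without Vector 2 the log2 fold changes were 2.09 for PRDM16, 1.21 for PPARGC1A and -0.97 for PLIN4. Without Vector 3 they were 2.38, 0.70 and -1.80. The summed endothelial markers were at 0.717 and 0.798 TPM in Vector and 4.88 and 5.02 TPM in Vehicle. The summed duct markers were at 4647 and 4964 against 7124 and 7237 TPM. Fibroblast markers were at 51.5 to 56.4 against 57.7 to 58.7 TPM, and immune markers overlapped. Most of the duct difference was in KRT8 and KRT18, while KRT7 overlapped (836 and 751 against 787 and 792 TPM). The part of these shifts was not tested. Construct, treatment and experiment cannot be told apart in this comparison.

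Related genes were read from 5 lists. They hold 44 genes of the brown and beige fat program, 22 of mature fat cells, 22 regulators of fat cell formation, 36 of lipid droplets and lipolysis, and 21 targets of PPAR receptors. Between EBF2-OE and Vector, 28, 10, 20, 31 and 16 of them were tested, and 0 were called in either direction in each list by edgeR. DESeq2 called 0 of them as well. At an unadjusted p under 0.05 and the fold limit edgeR gave SLC2A4 among the mature fat cell genes and ZNF423 among the regulators, both higher, where 0.733% of all genes tested met that limit. The median log2 fold changes were 0.11, 0.04, -0.01, 0.03 and 0.10 in that order, beside 0.00 over all genes tested. Both EBF2-OE libraries were above both Vector libraries for 4 of 28, 1 of 10, 3 of 20, 4 of 31 and 9 of 16 genes, beside 12.1% of all genes tested. Of the 16 PPAR targets 13 were positive, beside 50.9% of all genes tested, and 0 were below in both libraries.

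SLC2A4, the insulin-responsive glucose transporter of fat and muscle, had 24 and 36 counts in Vector and 47 and 110 in EBF2-OE. Both EBF2-OE libraries were above both Vector libraries, with a log2 fold change of 1.45, a standard error of 0.470 and an adjusted p of 1.00. Without EBF2-OE 3 it was 0.80 and without EBF2-OE 2 it was 1.88. ZNF423, a zinc finger protein that binds EBF factors and marks white fat precursors, had 1 and 0 counts in Vector and 12 and 14 in EBF2-OE. It was at least 4.54-fold higher when 3 counts are assumed in each Vector library, and its adjusted p was 1.00. The pair with the smallest p in each other list did not pass either: ACOT11 (log2 fold change -0.53) and KCNK3 (0.50) in the brown fat list, G0S2 (1.33, with 6 and 3 counts against 10 and 12) and LIPE (0.35) in the lipid droplet list, and ETFDH (0.29) and ACADM (0.17) among the PPAR targets. The second gene by p was LIPE again among the mature fat cell genes and CEBPG (-0.31) among the regulators.

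Under GSK-LSD1 genes of the lists were called in both directions, and the counts stand beside 2.53% of all genes tested called higher and 2.04% called lower. Of all genes tested, 49.0% had a positive log2 fold change. In the brown and beige fat list 1 of 29 genes tested was called higher and 2 lower, with a median of -0.08 and 12 of 29 positive. These calls are few, and they were not tested against those shares. FABP3, a fatty acid carrier of muscle and brown fat that is also in the PPAR list, rose from 228 and 279 counts to 418 and 437, a log2 fold change of 0.95 with an adjusted p of 2.12e-04. NRIP1, a corepressor of oxidative genes, fell by 0.70 on the log2 scale, and TBX1, a beige fat marker, fell by 0.62.

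Among mature fat cell genes 0 of 10 were called higher and CFD was called lower, with a median of 0.07 and 5 of 10 positive. CFD, the complement protease adipsin, went from 3096 and 2098 counts to 875 and 885, with no overlap, a log2 fold change of -1.38 and an adjusted p of 4.48e-04. Of 19 regulators 0 were called higher and 3 lower, ZNF467 (-1.002), CEBPD (-0.79) and KLF4 (-0.64), with a median of -0.24 and 2 of 19 positive. CEBPD acts early in fat cell formation, before CEBPA and PPARG.

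Among lipid droplet genes 1 of 31 was called higher and 2 lower, with a median of 0.07 and 21 of 31 positive. Again the calls are few and were not tested against the shares over all genes. LPIN1, a phosphatidate phosphatase of triglyceride synthesis, rose by a log2 fold change of 0.69. PNPLA2, the triglyceride lipase ATGL, fell by 0.80 on the log2 scale, and CIDEB, a droplet protein of liver related to CIDEA, fell by 0.61. Of 17 PPAR targets 2 were called higher and 0 lower, with a median of 0.14 and 15 of 17 positive. The second of them, ACSL1, which activates long fatty acids, went from 195 and 203 counts to 612 and 546, a log2 fold change of 1.74 with an adjusted p of 4.58e-06.

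In 1 fit over all 8 libraries each of the 8 list genes called lower lost its call, with adjusted p-values from 0.0601 for NRIP1 to 0.624 for KLF4. The calls for PRDM16, ACSL1, FABP3 and LPIN1 held under all 11 alternatives. Those for CEBPD and CIDEB held under 6 of 11, and those for TBX1, ZNF467 and PNPLA2 under 8. Without Vehicle 1 the log2 fold changes were -0.43 for CEBPD, -0.36 for CIDEB, -0.46 for TBX1 and -0.51 for PNPLA2, all under the fold limit. Without Vehicle 2 that of NRIP1 was -0.58, also under it. The calls for CEBPD, CIDEB, ZNF467 and PNPLA2 were lost without GSK-LSD1 1 (adjusted p 0.0812, 0.0854, 0.0589 and 0.0514), and those for CEBPD, CIDEB and ZNF467 without GSK-LSD1 2 (0.0946, 0.137 and 0.0735). Without GSK-LSD1 2 that of TBX1 was -0.57, under the fold limit.

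**Figure D4:**
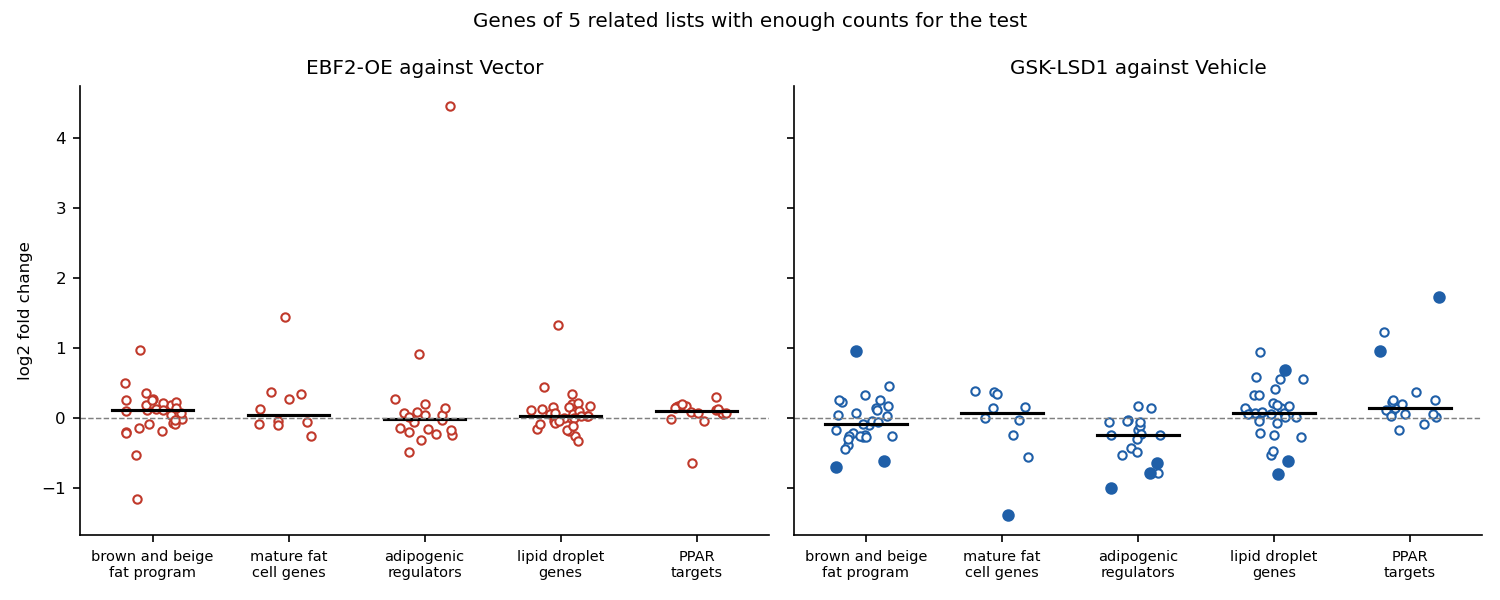
Log2 fold change of each tested gene of the 5 lists in both comparisons. Points are genes, filled where called, and the bar is the median of the list. No gene is filled on the left, and the highest point there is ZNF423, with 1 and 0 counts in Vector. On the right the filled points lie on both sides of 0, from CFD at -1.38 to ACSL1 at 1.74.

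PLIN2, which rises when cells store fat, was also compared with all other genes for its pattern over the 8 libraries, after subtracting the mean of each experiment from log2(CPM + 1). The 3 of 15259 genes most like it were PPP1R3B (Pearson r = 0.993), SEMA4B (0.991) and MT1X (0.990). Like PLIN2, each was higher in the libraries numbered 2 than in those numbered 3 of Vector and EBF2-OE. PPP1R3B, a glycogen-targeting subunit of protein phosphatase, had 45.5 and 19.5 CPM in Vector and 45.5 and 16.9 CPM in EBF2-OE. MT1X, a metallothionein, had 42.2 and 16.6 CPM in Vector and 44.5 and 12.4 CPM in EBF2-OE. These r values describe 8 libraries that share a cell line and an experiment in sets of 4, and the shared pattern is the difference between library numbers.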

How the data were processed

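Paired-end reads of 150 bases were aligned by the authors to hg38 with HISAT2 at default settings and counted per gene with HTSeq. Versions, annotation and strand setting are not given in the sources used here. The authors deposited raw counts, and TPM that was checked to be the count per listed gene length, rescaled. Reads of genes that overlap on opposite strands cannot be told apart.

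The tests ran on raw counts in edgeR 4.0.16 under R 4.3.3 (TMM, filterByExpr with a minimum count of 10, quasi-likelihood test, two-sided, Benjamini-Hochberg over all genes tested), and called at a fold change above 1.5 and an adjusted p under 0.05. Standard errors came from the test statistic. The test was tried on simulated data with known changes. These data left out the spread particular to each gene and any shared difference between library numbers. Libraries of a group differed beyond counting error (chi-square per degree of freedom 5.70 to 36.1), so none was a copy. The alternatives used DESeq2 1.42.0, limma 3.58.1 with a pseudocount of 1, other filters and scalings, a replicate block and each library left out. The latter used the test on 3 libraries, chosen after seeing the data, where the lone library is assumed to vary like the other group.

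The genes and lists were chosen with earlier results of these data known. Named list genes are those called, at most 3 in each direction by fold change, or else the 2 with the smallest p. Levels of different genes were compared in TPM. Scripts used Python 3.11.15, pandas 2.3.3 and matplotlib 3.10.9.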

Additional observations from a re-analysis of the deposited data

How the results depend on the processing

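Of the 8 genes tested, EBF2-OE against Vector gave 0 calls in the other settings and 1 (PLIN4) without the low-count filter and 1 (PLIN4) with unadjusted p. In 1 fit over all 8 libraries GSK-LSD1 kept 1 call (PRDM16) and Vector against Vehicle 1 (PRDM16). Leaving out 1 library gave 0 to 5 calls in Vector against Vehicle, 0 without either Vehicle library and 5 without either Vector library. Apart from unadjusted p, no share of all genes called is given for these settings. These counts of calls therefore do not set the 8 genes apart from all genes tested. The full EBF palindrome was in 0 of 9 promoters. For the rest the cause was not tested. The sign of CEBPA in EBF2-OE turned to -0.034 with limma. Leaving out 1 library gave, for EBF2-OE against Vector, log2 fold changes of -1.13 to 0.93 for CEBPA, -0.42 to 1.502 for DIO2, -0.64 to 0.37 for PLIN2, -2.68 to 0.64 for PLIN1, -0.17 to 0.38 for PRDM16, -1.11 to 0.20 for PPARGC1A, -0.55 to 0.17 for PPARG and -0.018 to 0.64 for LIPE. For Vector against Vehicle it gave -0.043 to 0.77 for PLIN2 and -0.68 to 0.72 for CEBPA.

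The replicate numbers are not said to pair libraries. The deviations of same-numbered libraries from their group means correlated at 0.347 in EBF2-OE and Vector and at -0.0455 in GSK-LSD1 and Vehicle, over 15560 and 16059 genes. With the replicate block, CEBPA was at -0.026, PLIN4 had a log2 fold change of 2.02 with an adjusted p of 0.0701, and the calls among the 8 genes were 0 for EBF2-OE and 3 for GSK-LSD1. A block was not run for the difference of the effects, since the experiments carry different numbers. At 20453362 to 27054876 counts a library, UCP1 and CIDEA stayed below the level a test needs.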
